A study of Mus musculus with 12 samples.

Results

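T cell receptor beta genes were followed in naïve and effector memory CD4+ T cells of mice that carry a fate reporter for GM-CSF. The members were all genes of the deposited table whose symbol, found by Entrez identifier, starts with Trbv, Trbd, Trbj or Trbc. RefSeq names 53 such genes on GRCm38.p6 and 39 of them were among the 17523 genes of the table: 22 of 35 Trbv, 2 of 2 Trbd, 13 of 14 Trbj and 2 of 2 Trbc. The other 14 (13 Trbv and Trbj2-6) are marked as pseudogenes in RefSeq and were not analysed here. Trbv29, which GENCODE lists as a gene, is one of these. All 39 members passed the filter on low counts and were tested.

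The mice were Gr/fr animals on the C57BL/6 strain, 2 to 3 months old and not immunized. In all 4 groups the Csf2 allele carried Cre and BFP and the Rosa26 locus carried eYFP behind a stop cassette, so that YFP marks cells in which Csf2 is or has been active. CD4+ T cells from spleen were sorted into YFP- naïve, YFP+ naïve, YFP- TEM and YFP+ TEM cells, with 3 libraries in each group. Naïve cells were low and TEM cells high in CD44, which was sorted beside other surface markers. The comparisons asked whether cells with and without a history of GM-CSF use the beta locus alike, within naïve and within TEM cells, and whether TEM cells differ from naïve cells.

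The sort was visible in the RNA. Cd44, the sorted adhesion receptor, had 2334 to 3372 normalized counts in naïve and 21778 to 29383 in TEM libraries. Cd3e, Cd4 and Trac, the defining markers of CD4+ T cells, were high in every library. A library held 40974124 to 57822269 reads on genes, of which 18035 to 30093 fell on Trbv genes. The 95% Wilson interval of a Trbv share was at most 0.513 percentage points to either side, which covers counting error only. RNA came from many cells, so fewer cells that use a segment and less RNA per cell cannot be told apart.

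The beta chain of the alpha beta T cell receptor is assembled in the thymus by joining 1 V, 1 D and 1 J segment, and the joined exon is spliced to a constant region. The murine locus holds 2 clusters, each with a D segment, a row of J segments and a constant gene (Trbd1, Trbj1 and Trbc1, then Trbd2, Trbj2 and Trbc2). A naïve T cell pool holds very many clones, whereas memory pools hold clones that have expanded. Invariant natural killer T (NKT) cells, which recognise lipids on CD1d, pair a fixed alpha chain (Trav11 with Traj18) mostly with Trbv13-2, Trbv29 or Trbv1.

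The locus is on chromosome 6 (GRCm38), from Trbv1 at 40891296 to Trbv31, which ends at 41558371 and lies beyond Trbc2 in the opposite orientation. The segments on which the results turn are shown by their germline ends, from the GENCODE M21 transcripts. Each line gives the last 60 bases of a V segment, with the codon of the conserved cysteine that opens the third complementarity determining region, and all that follows it, in capitals. Trbv13-2, Trbv13-3 and Trbv13-1 are close relatives, so their ends are set together.
Trbv13-2 (chr6:41121773-41121832, plus strand): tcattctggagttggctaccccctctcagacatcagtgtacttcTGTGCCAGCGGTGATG
Trbv13-3 (chr6:41130526-41130585, plus strand): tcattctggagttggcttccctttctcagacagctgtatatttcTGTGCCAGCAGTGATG
Trbv13-1 (chr6:41116409-41116468, plus strand): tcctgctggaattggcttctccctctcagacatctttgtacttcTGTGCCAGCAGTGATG
Trbv1 (chr6:40891826-40891885, plus strand): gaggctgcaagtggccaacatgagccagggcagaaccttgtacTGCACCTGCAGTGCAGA
Trbv5 (chr6:41062744-41062803, plus strand): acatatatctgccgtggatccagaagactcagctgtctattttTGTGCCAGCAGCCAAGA
Trbv14 (chr6:41135557-41135616, plus strand): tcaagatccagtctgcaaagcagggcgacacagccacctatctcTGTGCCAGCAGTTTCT
Trbv20 (chr6:41188918-41188977, plus strand): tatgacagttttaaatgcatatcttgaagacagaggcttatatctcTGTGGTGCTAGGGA
Trbv31 (chr6:41557693-41557752, minus strand): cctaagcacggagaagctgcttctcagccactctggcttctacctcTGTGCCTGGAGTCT
A cysteine codon stood within the last 7 codons of each of the 21 Trbv segments with a coding sequence in this annotation. Over the coding bases, Trbv13-2 shared 90.6% of aligned positions with Trbv13-3 and 87.9% with Trbv13-1, and the longest run of identical bases was 50 and 34. Trbv13-2 and Trbv1 shared 52.7%. Reads inside a shared run cannot be placed on 1 member of the Trbv13 family, so values of single members are less certain than their sum.

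The D and J segments are short, and 2 J segments of each cluster are shown beside both D segments to make the difference in length visible. Capitals mark the 4 codons of the Phe-Gly-any-Gly motif of the J segments, or the whole D segment.
Trbd1 (chr6:41533201-41533212, plus strand): GGGACAGGGGGC
Trbd2 (chr6:41542163-41542176, plus strand): GGGACTGGGGGGGC
Trbj1-1 (chr6:41533864-41533911, plus strand): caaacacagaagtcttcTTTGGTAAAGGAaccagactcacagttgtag
Trbj1-5 (chr6:41535084-41535133, plus strand): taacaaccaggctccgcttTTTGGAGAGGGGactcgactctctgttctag
Trbj2-5 (chr6:41543453-41543501, plus strand): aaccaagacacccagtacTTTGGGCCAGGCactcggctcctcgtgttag
Trbj2-7 (chr6:41543810-41543856, plus strand): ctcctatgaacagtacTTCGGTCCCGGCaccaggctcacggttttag
The motif was found in 11 of the 13 listed J segments. Trbj1-6 and Trbj1-7 did not hold these letters. The D segments are 12 and 14 bases long, and how reads that reach beyond them were counted is not given in the sources used here.

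Trbv usage was taken as the share of a segment in the summed Trbv normalized counts of its library. Over the 12 libraries Trbv13-2 had the highest mean share with 12.7%, followed by Trbv3 with 10.9%, Trbv1 with 7.84%, Trbv31 with 6.87% and Trbv5 with 6.28%. Per exon kilobase, which makes levels of different segments comparable, Trbv13-2 stayed at the head with 14.6%, before Trbv3 with 9.41% and Trbv1 with 7.39%. The rarest listed segments were Trbv21 (0.173%), Trbv24 (0.269%) and Trbv30 (0.373%). Trbv24 is a pseudogene in GENCODE and a V segment in RefSeq.

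**Figure D1:**
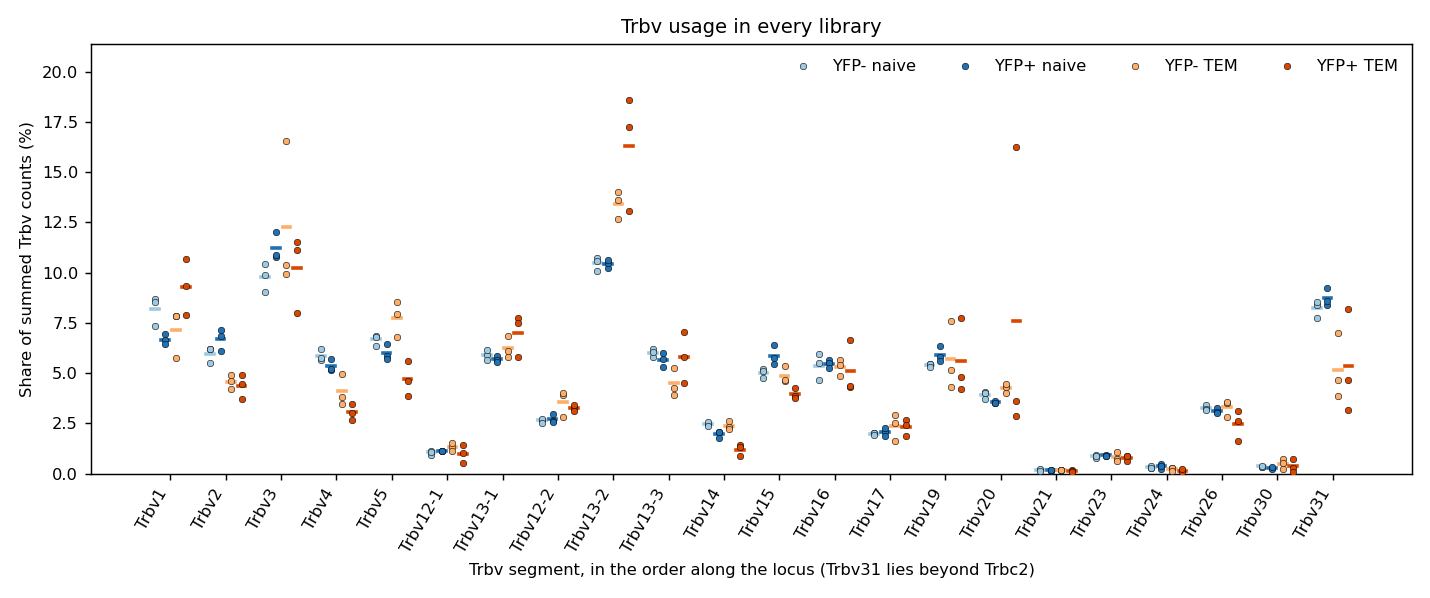
Share of each of the 22 listed Trbv segments in the summed Trbv counts of a library (%, vertical axis), with segments ordered along the locus (horizontal axis). Points are libraries, bars are group means and colours are the 4 groups with 3 libraries each. Naïve libraries lie close together for nearly every segment, and the points that stand off are TEM libraries, such as YFP+ TEM replicate 2 at 16.3% for Trbv20.

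Naïve libraries used the segments nearly alike. The median coefficient of variation of a share between replicates was 4.99% in YFP- naïve and 6.01% in YFP+ naïve cells, against 16.1% in YFP- TEM and 20.3% in YFP+ TEM cells. Each library was also set against the mean of the other 2 libraries of its group, by adding up the differences of all shares and halving the sum. This usage distance was 2.60 to 3.48 percentage points in the 6 naïve libraries and 7.56 to 20.3 in the 6 TEM libraries, so the ranges did not overlap. The TEM libraries lay 8.87 percentage points farther apart on average (two-sided exact permutation test over libraries, p = 0.00216, the smallest value the test can give). With labels permuted only within a replicate number, the exact p was 0.00926. Distances within a group share libraries, and this measure was chosen after the data had been seen. Counting error alone gives a chi-square per degree of freedom near 1. It was 4.03 and 3.99 in the naïve groups, 40.4 in YFP- TEM and 129 in YFP+ TEM cells.

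Trbv20 was the segment with the widest spread among YFP+ TEM libraries. Trbv20 took 3.63% in replicate 1, 16.3% in replicate 2 (95% Wilson interval 15.8 to 16.8%) and 2.85% in replicate 3. In the other 9 libraries it lay between 3.49 and 4.48%, so YFP+ TEM replicate 2 stood far above all others. Without Trbv20 the chi-square per degree of freedom of YFP+ TEM cells was 48.5 and that of YFP- TEM cells 42.3. The usage distance without it was 7.17 to 12.9 percentage points in YFP+ TEM and 2.87 to 3.35 in YFP+ naïve libraries. Trbv20 was not called in TEM cells (log2 fold change 0.50 ± 0.47 SE, limma adjusted p = 0.727).

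Other segments were high in 1 TEM library as well. Trbv3, the segment with the next highest mean share after Trbv13-2, took 9.93, 16.5 and 10.4% in YFP- TEM replicates 1, 2 and 3. Its share was 8.01, 11.1 and 11.5% in YFP+ TEM replicates, and 9.02 to 12% in the naïve libraries. Replicate 2 of YFP- TEM cells thus held the highest share of Trbv3 (95% Wilson interval 16.1 to 17.0%), and the TEM groups overlapped. Trbv31 took 8.19, 3.16 and 4.67% in YFP+ TEM replicates 1, 2 and 3 and 4.66, 3.88 and 6.99% in YFP- TEM replicates.

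**Figure D2:**
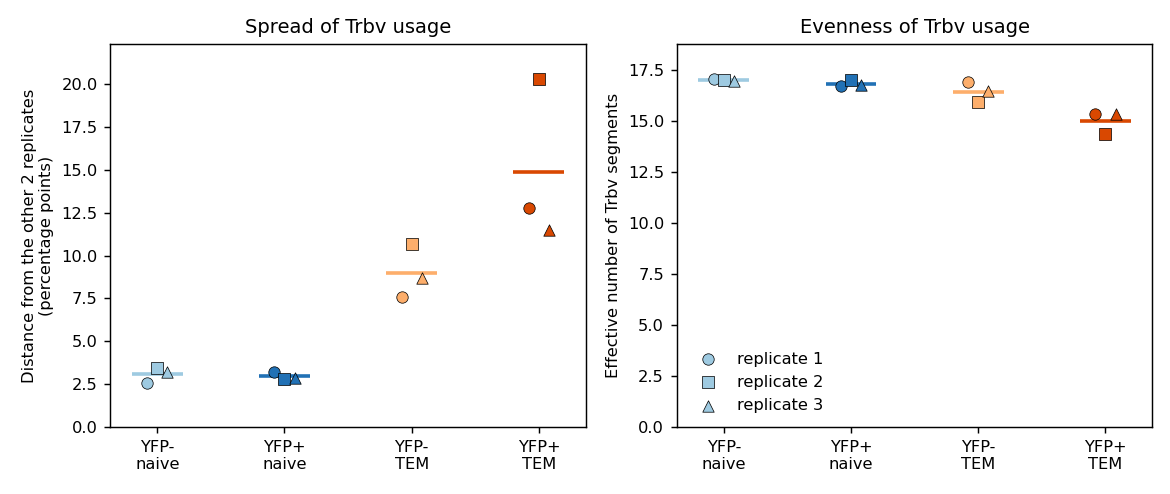
Left, usage distance of each library from the mean of the other 2 libraries of its group (percentage points). Right, effective number of Trbv segments per library. Bars are group means and symbols are replicate numbers. The 6 naïve libraries stay at or below 3.48 percentage points and at or above 16.7 effective segments, and YFP+ TEM replicate 2 has the greatest distance (20.3) and the fewest effective segments (14.3).

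Usage was less even in TEM cells. The effective number of segments is the exponential of the Shannon entropy of the shares and would be 22 if all listed segments were used alike. Naïve cells reached 17.0 ± 0.0440 (YFP-) and 16.8 ± 0.163 (YFP+), and TEM cells 16.4 ± 0.498 (YFP-) and 15.0 ± 0.567 (YFP+), given as SD with n = 3 each. The number in TEM minus that in naïve libraries was -1.19 (two-sided exact permutation test, 6 against 6, p = 0.00649). With labels permuted only within a replicate number, the exact p was 0.0185. YFP+ TEM libraries held 15.3, 14.3 and 15.3 effective segments and YFP- TEM libraries 16.9, 15.9 and 16.5, so these groups did not overlap. The difference of -1.42 had p = 0.1 in the exact test, the smallest that 3 against 3 libraries allow. In naïve cells the difference between YFP+ and YFP- cells was -0.194 (p = 0.2, exact test).

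Within TEM cells, few members of the locus passed the test between YFP+ and YFP- libraries. Of the 39 members, 0 were called higher, while 2.3% of all 15587 genes tested were (limma, Benjamini-Hochberg adjusted p of 0.05 or less at any fold change). 2 were called lower, Trbv14 and Trbv5, beside 4.67% of all genes. At an unadjusted p under 0.05 the counts were 4 higher and 2 lower, and 17.1% of all genes passed in either direction. The numbers of the libraries paired YFP+ with YFP- cells. With the replicate number as a block, Trbv1 and Trbv13-2 were called higher and Trbv14 and Trbv5 lower, beside 5.22% and 6.77% of all genes. With the block set within each cell type, an alternative added after the data had been seen, 2 members were again called higher and 2 lower, beside 8.35% and 9.35% of all genes, so the share of members called was no greater than that of all genes. The median log2 fold change was -0.10 over the members and -0.01 over all genes.

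Trbv14 was the member with the lowest ratio. It had 496, 522 and 406 normalized counts in YFP- TEM and 320.5, 286 and 180 in YFP+ TEM replicates 1, 2 and 3. All YFP+ libraries lay below all YFP- libraries (log2 fold change -0.89 ± 0.19 SE, limma adjusted p = 0.0136, with the block 0.00384). Its share of Trbv was 2.38 ± 0.194% in YFP- and 1.20 ± 0.301% in YFP+ TEM cells (SD, n = 3). Trbv14 was also low in YFP+ naïve libraries, with 497, 430 and 472 normalized counts against 668, 602 and 583 in YFP- naïve libraries. That difference was not called (log2 fold change -0.40 ± 0.19 SE, limma adjusted p = 1.0), and the YFP effect in TEM minus that in naïve cells was not called either (log2 -0.49 ± 0.27 SE, limma adjusted p = 0.605).

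Trbv5 had 1516, 1902 and 1248 normalized counts in YFP- TEM and 1033, 849 and 1168 in YFP+ TEM replicates 1, 2 and 3. The groups did not overlap (log2 fold change -0.60 ± 0.16 SE, limma adjusted p = 0.0406, with the block 0.0282). Its share was 7.75 ± 0.881% in YFP- and 4.69 ± 0.862% in YFP+ TEM cells. In naïve cells it took 6.68 ± 0.284% and 6.00 ± 0.408%. Leaving out any 1 of YFP- TEM replicates 1 and 2 or YFP+ TEM replicates 1 and 2 ended the call for Trbv5 (limma adjusted p = 0.112, 0.166, 0.0998 and 0.137), and leaving out YFP- naïve replicate 2 or 3 or YFP+ naïve replicate 3 did so by a small margin (0.0530, 0.0570 and 0.0522). The call for Trbv14 ended without YFP- TEM replicate 1 or 2 (limma adjusted p = 0.0613 for each).

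Trbv1 and Trbv13-2, the listed segments that invariant NKT cells use most, lay on the other side. Trbv1 had 1505, 1285 and 1440 normalized counts in YFP- TEM and 2091, 1728 and 2233 in YFP+ TEM replicates 1, 2 and 3. The groups did not overlap, and the log2 fold change of 0.51 ± 0.15 SE had a limma adjusted p of 0.0613, or 0.00123 with the replicate block. Trbv13-2 had 2606, 2823 and 2579 normalized counts in YFP- TEM and 4156, 2867 and 3604 in YFP+ TEM replicates. Replicate 2 of the YFP+ cells lay just above the YFP- libraries and the other 2 far above them (log2 0.39 ± 0.13 SE, adjusted p = 0.103, with the block 0.0294). Its share was 13.4 ± 0.707% in YFP- TEM cells and 18.6, 13.1 and 17.2% in YFP+ TEM replicates 1, 2 and 3. Without YFP+ TEM replicate 2 the limma adjusted p was 0.0374 for Trbv1 and 0.0166 for Trbv13-2. Both were not called without any 1 of the other 5 TEM libraries, where the limma adjusted p was 0.107 to 0.227 for Trbv1 and 0.153 to 0.374 for Trbv13-2, the latter without YFP+ TEM replicate 1 at a log2 fold change of 0.27.

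Together Trbv13-2 and Trbv1 made up 21.5, 18.4 and 21.9% of Trbv counts in YFP- TEM and 28.0, 20.9 and 27.9% in YFP+ TEM replicates 1, 2 and 3. The sum was higher in the YFP+ library of all 3 pairs. The groups overlapped, and the difference of 5.0 percentage points had p = 0.3 (two-sided exact permutation test, which does not use the pairs). The sum was 17.1 ± 0.381% in YFP+ and 18.7 ± 0.522% in YFP- naïve cells, lower in the YFP+ library of all 3 pairs and without overlap (p = 0.1, exact test, the smallest possible).

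Trbv13-3 and Trbv13-1, the relatives of Trbv13-2, were not called. Trbv13-3 had 746, 954 and 970 normalized counts in YFP- TEM and 1574, 991 and 1216 in YFP+ TEM replicates, without overlap (log2 0.49 ± 0.19 SE, limma adjusted p = 0.175). Trbv13-1 had 1310, 1357 and 1071 against 1732, 1273 and 1564 normalized counts, and these groups overlapped (log2 0.29 ± 0.15 SE, limma adjusted p = 0.372). As a family the Trbv13 segments took 24.4, 23.0 and 25.1% in YFP- and 33.4, 23.4 and 30.5% in YFP+ TEM replicates. The family share of YFP+ replicate 2 was thus inside the range of the YFP- libraries, and the difference of 4.92 percentage points had p = 0.3 in the exact test.

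**Figure D3:**
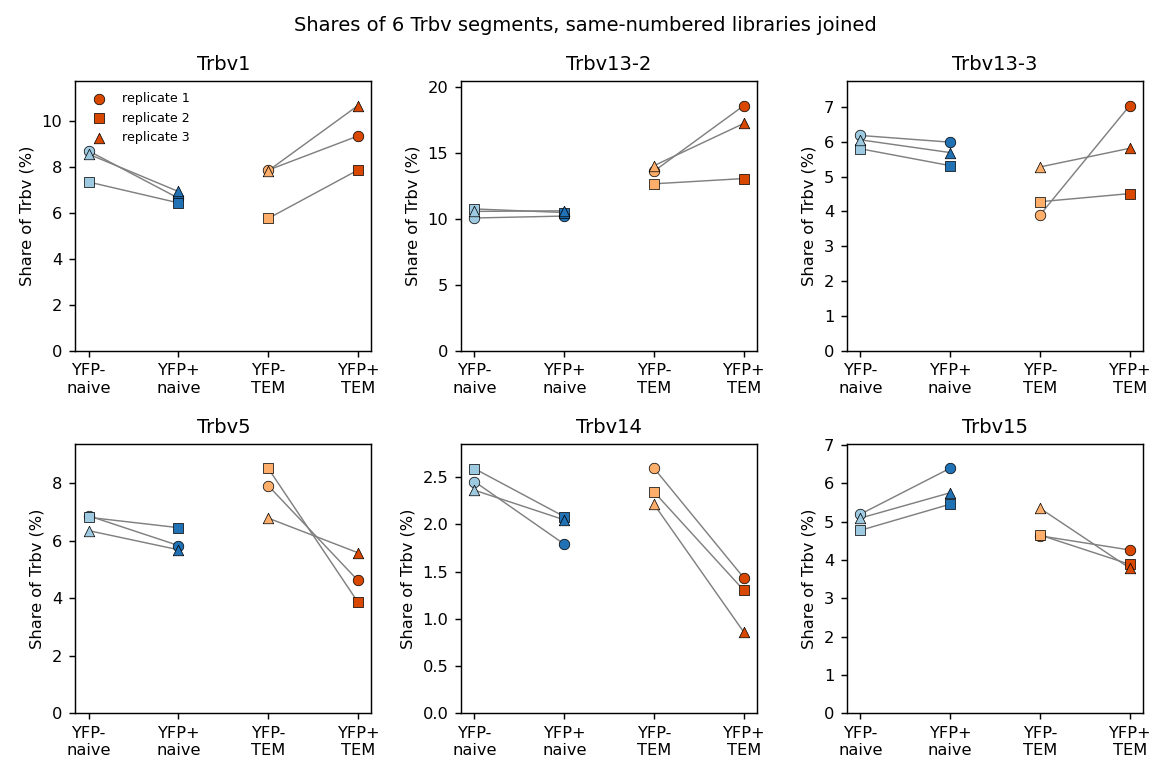
Share of Trbv counts (%, vertical axis from 0) of 6 segments in the 4 groups, with lines that join YFP- and YFP+ libraries of the same replicate number and a symbol per number. Trbv1 falls in all 3 naïve pairs and rises in all 3 TEM pairs, Trbv14 and Trbv5 fall in all 6 pairs, and Trbv15 rises in the naïve and falls in the TEM pairs.

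Markers of other cells moved with the same comparison. All 6 genes of the invariant NKT list (Trav11, Trav11d, Traj18, Zbtb16, Klrb1c and Cd160) were higher in YFP+ TEM cells, and their summed level was 893 to 1138 normalized counts in YFP- and 5291 to 11523 in YFP+ TEM libraries. It was 231 to 388 in naïve libraries. Trav11, the V segment of the invariant alpha chain, had 89 to 126 normalized counts in YFP- and 937 to 2303 in YFP+ TEM libraries. Of the gamma delta T cell list 4 of 5 tested genes were higher (Trgc1, Trgc2, Trgc4 and Trgv2), from a summed 439 to 566 in YFP- to 2221 to 4404 in YFP+ TEM libraries, while Trdc, the delta constant gene, was not called (214 to 358 in YFP- and 189 to 258 in YFP+ TEM libraries). Dendritic cell genes were lower in YFP+ TEM cells. The plasmacytoid list summed to 6151 to 11295 in YFP- and 2075 to 2512 in YFP+ TEM libraries (5 of 5 genes lower), and the conventional dendritic and myeloid list to 11274 to 21444 and 1861 to 3575 (3 of 5 lower). CD8 T cell genes summed to 685 to 1490 and 187 to 373 (2 of 2 lower). The NK list had 2 of 3 tested genes higher, with 602 to 786 against 1336 to 2032 counts. Of these, Klrb1c is also on the invariant NKT list and had 149 to 160 normalized counts in YFP- and 870 to 1640 in YFP+ TEM libraries. Ncr1, the other, reached 6.21 to 56.1 in YFP+ TEM libraries. The B cell list had 1 of 5 higher, with 405 to 496 against 321 to 834. The part of these cells in the Trbv differences was not tested.

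The constant genes, which every beta chain carries, were not called by YFP status. Trbc1 had 20852, 25200 and 20013 normalized counts in YFP- TEM and 24791, 22913 and 23128 in YFP+ TEM replicates, and the groups overlapped (log2 0.11 ± 0.11 SE, limma adjusted p = 0.741). Trbc2 had 42126, 46252 and 40149 against 50664, 48825 and 46915, without overlap (log2 0.19 ± 0.12 SE, adjusted p = 0.516). Trbc1 made up 33.9 ± 1.20% of both constant genes in YFP- and 32.6 ± 0.582% in YFP+ TEM cells (exact p = 0.1, the smallest possible for 3 against 3) and was lower in the YFP+ library of all 3 pairs. In naïve cells it made up 32.5 ± 1.24% and 32.1 ± 1.33%. The coding sequences of Trbc1 and Trbc2 are 95.5% identical with a shared run of 257 bases, so the split of reads between them is uncertain. Summed Trbv counts were 19934 ± 2084 in YFP- and 21737 ± 747 in YFP+ TEM cells (exact p = 0.3).

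Among J segments Trbj2-5 stood out with 206, 246 and 215 normalized counts in YFP- TEM and 430, 260 and 258 in YFP+ TEM replicates. The groups did not overlap, and the difference was not called (log2 0.47 ± 0.21 SE, limma adjusted p = 0.275). Not 1 of the 13 Trbj or 2 Trbd genes was called between YFP+ and YFP- TEM cells. By levels, 5 members lay higher without overlap (Trbv1, Trbv13-2, Trbv13-3, Trbj2-5 and Trbc2), beside 10.6% of all genes, and 2 lower (Trbv5 and Trbv14), beside 14.3% of all genes. By share of Trbv, Trbv1 was higher and Trbv5, Trbv14 and Trbv15 were lower without overlap. Each of these 4 had an exact p of 0.1, and no share can go below it with 3 against 3 libraries.

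Of 11 other tested genes of the receptor and of recombination, 1 was called higher in YFP+ TEM cells, beside 2.3% of all genes. It is not named here. In the other direction 1 was called lower, beside 4.67% of all genes. This was Dntt, which adds nucleotides at V, D and J joints (log2 -4.61 ± 0.46 SE, limma adjusted p = 1.54e-04). Dntt had 211 to 449 normalized counts in YFP- and 7.25 to 33.4 in YFP+ TEM libraries. Trac, which encodes the alpha constant region, had 47568 to 53057 normalized counts in YFP- and 55500 to 60017 in YFP+ TEM libraries and was not called (log2 0.17 ± 0.15 SE, adjusted p = 0.707). Rag1 had at most 5.74 normalized counts in any TEM library.

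Within naïve cells, 0 members were called between YFP+ and YFP- libraries in limma, edgeR or DESeq2 without a block. At an unadjusted p under 0.05, 1 was lower in limma (Trbv1, log2 -0.38 ± 0.15 SE), 1 in edgeR and 2 in DESeq2, and 3.32% of all genes passed in limma in either direction. Over all genes 1 was called higher (0.00642%) and 0 lower (0.0%), so that few calls were made anywhere. With the replicate block Trbv1 was called lower by DESeq2 (adjusted p = 0.00615, beside 0.141% of all genes lower) and not by limma (adjusted p = 0.184) or edgeR (adjusted p = 0.196). With the block set within each cell type, limma called Trbv1 lower (adjusted p = 0.0374, beside 0.154% of all genes). By level, 0 members were higher without overlap, beside 3.16% of all genes, and 2 were lower (Trbv14 and Trbv30), beside 2.21% of all genes. The median log2 fold change was -0.13 over the members and 0.01 over all genes.

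The shares of several segments did not overlap between YFP+ and YFP- naïve cells. Trbv1 took 8.71, 7.35 and 8.57% in YFP- and 6.65, 6.44 and 6.94% in YFP+ naïve replicates 1, 2 and 3. Trbv15 took 5.19, 4.77 and 5.09% against 6.39, 5.46 and 5.75%, and Trbv3 took 9.88, 10.5 and 9.02% against 12, 10.8 and 10.9%. Trbv14 took 2.47 ± 0.115% and 1.97 ± 0.159%, and Trbv20 took 3.93 ± 0.188% and 3.55 ± 0.0712%. None of these 5 segments overlapped between the groups. In all, 4 segments were higher (Trbv3, Trbv12-1, Trbv15 and Trbv19) and 4 lower (Trbv1, Trbv14, Trbv20 and Trbv30) in YFP+ naïve cells without overlap, each with an exact p of 0.1, the smallest possible. Shares of a library add up to a whole, so these segments are not independent, and shares have no counterpart over all genes to be read against. Group means were 4.45 percentage points apart in usage distance between YFP+ and YFP- naïve cells and 10.5 between YFP+ and YFP- TEM cells. Single libraries lay 2.60 to 3.48 points from the others of their group in naïve and 7.56 to 20.3 in TEM cells. The TEM distance was inside the range of its own replicates. A mean of 3 libraries varies less than a single library, so this does not decide whether the groups differ. The TEM distance also includes Trbv20, which YFP+ TEM replicate 2 raised (difference of mean shares 3.31 points). Cd8b1, of the CD8 T cell list, was at 1157 and 498 normalized counts on average in YFP- and YFP+ naïve cells. Its difference was not called (limma adjusted p = 0.559), nor was that of Cd8a, the other listed gene, at 61.4 and 44.0. The part of these genes in the shares was not tested.

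Trbv1 was the 1 member whose YFP effect was called different between naïve and TEM cells. Its normalized counts were 2370, 1707 and 2114 in YFP- naïve and 1845, 1330 and 1597 in YFP+ naïve replicates, the opposite order to TEM cells. The YFP effect in TEM minus that in naïve cells was 0.89 ± 0.21 SE on the log2 scale (limma interaction term, adjusted p = 0.0364, and 3.67e-04 with the replicate block set within each cell type). In the interaction 1 member was called higher, beside 0.828% of all genes, and 0 lower, beside 2.73% (0 at an unadjusted p under 0.05). The call ended without any 1 of 9 libraries, with adjusted p from 0.0640 to 0.102, and was kept without YFP- naïve replicate 2, YFP+ naïve replicate 1 or YFP+ TEM replicate 2. For Trbv13-2 the same difference was 0.48 ± 0.18 SE (adjusted p = 0.261), and for Trbv13-3 it was 0.65 ± 0.26 SE (adjusted p = 0.303).

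Between TEM and naïve cells the locus moved mostly one way. Of the 39 members, 26 were called lower in TEM cells, beside 25.4% of all genes, and 1 higher, beside 34.2% of all genes (limma, averaged over YFP status). Lower were 9 of 22 Trbv, 2 of 2 Trbd, 13 of 13 Trbj and 2 of 2 Trbc genes. The median log2 fold change was -0.44 over the members and 0.04 over all genes. Without overlap of the 6 and 6 libraries, 10 members were lower, beside 15.0% of all genes, and 0 higher, beside 21.9%. These were Trbv2, Trbv15, Trbd1 and 7 Trbj genes.

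**Figure D4:**
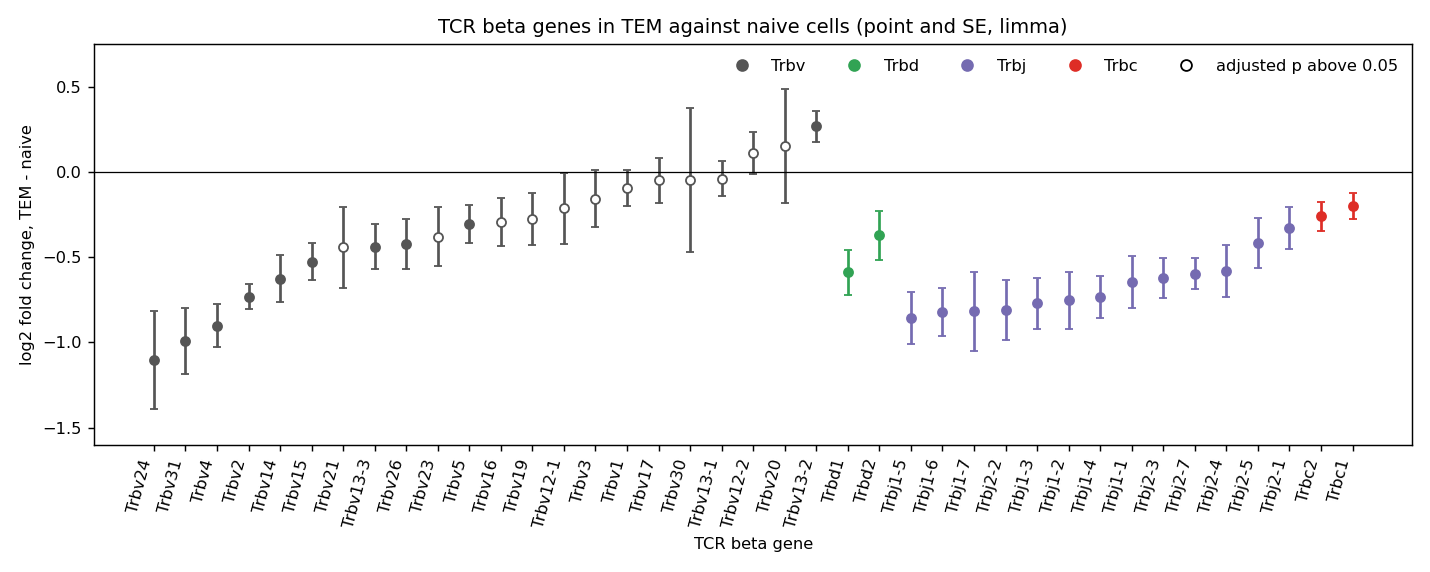
Log2 fold change of TEM against naïve cells averaged over YFP status (vertical axis, points with SE from limma, 6 libraries each) for the 39 members, grouped as Trbv, Trbd, Trbj and Trbc genes and coloured by kind. Filled points have an adjusted p of 0.05 or less. All 13 Trbj genes lie between -0.86 and -0.33, Trbc1 and Trbc2 at -0.20 and -0.26, and the Trbv genes spread from -1.11 to 0.27.

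The J segments fell, and so did the constant genes. Trbj1-5 had 179 to 376 normalized counts in naïve and 132 to 194 in TEM libraries (log2 -0.86 ± 0.15 SE, limma adjusted p = 3.75e-04), and Trbj2-7 had 543 to 724 against 355 to 460 (log2 -0.60 ± 0.09 SE, adjusted p = 8.38e-05). Trbd1 fell by 0.59 ± 0.13 SE and Trbd2 by 0.37 ± 0.14 SE on the log2 scale (limma adjusted p = 0.00197 and 0.0402). Trbc1 fell by 0.20 ± 0.07 SE and Trbc2 by 0.26 ± 0.08 SE (limma adjusted p = 0.0337 and 0.0181). Summed Trbj counts were 0.0480 ± 0.00667 of summed Trbc counts in naïve and 0.0363 ± 0.00435 in TEM libraries (two-sided exact permutation test, p = 0.00433). With labels permuted only within a replicate number, the exact p was 0.0185. Summed Trbv counts were 0.30 ± 0.00909 of summed Trbc counts in naïve and 0.304 ± 0.00571 in TEM libraries (exact p = 0.478). The Trbj ratios of single libraries ran from 0.0379 to 0.0565 in naïve and from 0.0321 to 0.0444 in TEM cells and overlapped. The J clusters differed as well, with 47.4 ± 3.36% of Trbj counts on the first cluster in naïve and 43.2 ± 1.77% in TEM libraries (exact p = 0.0195, or 0.0370 within replicate numbers).

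The scaling matters for these levels. With quantile normalization the median of all genes moved from 0.04 to -0.16 and that of the members from -0.44 to -0.97, and Trbc1 and Trbc2 changed sign to 0.0085 and 0.13 (not called, adjusted p = 0.909 and 0.0687). With every library scaled to the same summed Trbv count, 14 members were lower, beside 11.2% of all genes, and 2 higher, beside 43.2% of all genes, with medians of -0.21 over the members and 0.26 over all genes. Summed Trbv counts were 24428 ± 2710 in naïve and 20835 ± 1714 in TEM libraries (exact p = 0.0238, or 0.0370 within replicate numbers). Summed Trbc counts were 81177 ± 7200 and 68638 ± 5828 (exact p = 0.0130, or 0.0278 within replicate numbers). Dendritic cell genes were present in TEM libraries at the levels given above. In naïve libraries the conventional and myeloid list summed to 248 to 3079 and the plasmacytoid list to 2216 to 2621. YFP+ TEM libraries overlapped both ranges (1861 to 3575 and 2075 to 2512). YFP- TEM libraries lay above them (11274 to 21444 and 6151 to 11295). The part of these genes in the fall was not tested.

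Shares do not depend on the scaling of a library, and 8 of 22 segments differed in share between TEM and naïve cells. Trbv13-2, the most used segment, took 10.4 ± 0.259% in naïve and 14.9 ± 2.45% in TEM libraries, and the 6 TEM libraries lay above the 6 naïve ones (exact p = 0.00216, the smallest possible). It was the 1 member called higher by level (log2 0.27 ± 0.09 SE, limma adjusted p = 0.0227), and that call ended without YFP+ naïve replicate 2, YFP- TEM replicate 2 or YFP+ TEM replicate 1 (adjusted p = 0.0540, 0.0533 and 0.0551). Its relative Trbv13-3 was called lower by level, from 1433 ± 226 to 1075 ± 286 normalized counts, and its share overlapped (exact p = 0.177). The share of the Trbv13 family was 4.56 percentage points higher in TEM libraries (exact p = 0.00216). Trbv2 took 6.33 ± 0.581% and 4.47 ± 0.466%, and Trbv4 took 5.61 ± 0.399% and 3.57 ± 0.799%, both lower in TEM cells without overlap (exact p = 0.00216). Trbv31 took 8.48 ± 0.481% in naïve and 5.26 ± 1.93% in TEM libraries (exact p = 0.00433), with YFP+ TEM replicate 1 at 8.19% inside the naïve range. Trbv12-2 took 2.69 ± 0.161% and 3.42 ± 0.466% (exact p = 0.00433). Trbv15 and Trbv24 were lower and Trbv13-1 higher in share, with overlap (exact p = 0.0173, 0.0152 and 0.0433). The exact p of Trbv13-1 rose above 0.05 in 10 of 15 alternatives. The 8 segments had an exact p of 0.05 or less each, among 66 tests of shares over 3 comparisons that were not adjusted.

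Sums over groups of segments differed likewise. Trbv13-2 with Trbv1 took 17.9 ± 0.947% of Trbv in naïve and 23.1 ± 3.94% in TEM libraries (exact p = 0.00649, or 0.00926 within replicate numbers). Of the difference of 5.21 percentage points, Trbv13-2 made up 4.42. Trbv1 alone took 7.44 ± 0.975% in naïve and 8.23 ± 1.66% in TEM libraries, which overlapped (exact p = 0.346), and its level was not called (log2 -0.10 ± 0.10 SE, limma adjusted p = 0.451). Averaged over YFP status, the invariant NKT genes were higher in TEM than in naïve libraries for 5 of 6 listed genes. The gamma delta genes were higher for 4 of 5, with Trdc lower. In YFP- TEM cells Trav11, Trav11d and Traj18 averaged 113, 117 and 67.8 normalized counts, against 91.0, 98.7 and 86.2 in YFP- naïve cells. Zbtb16, Klrb1c and Cd160 averaged 189, 154 and 397 against 3.04, 4.72 and 38.8. The part of invariant NKT and gamma delta T cells in the shares was not tested. By group mean of levels, Trbv31 fell from 2064 ± 186 to 1090 ± 411 normalized counts (log2 -0.99 ± 0.19 SE, limma adjusted p = 7.23e-04), Trbv4 from 1371 ± 174 to 744 ± 186 (log2 -0.90 ± 0.13 SE, adjusted p = 5.42e-05) and Trbv24 from 81.9 ± 12.4 to 40.6 ± 17.9 (log2 -1.11 ± 0.29 SE, adjusted p = 0.00521). Trbv2 fell from 1537 ± 112 to 926 ± 79.5 (log2 -0.73 ± 0.07 SE, adjusted p = 3.16e-06). The usage of YFP+ TEM cells lay 14.8 percentage points from that of YFP+ naïve cells, and that of YFP- TEM cells 9.25 from YFP- naïve cells. Both lie inside the 7.56 to 20.3 points by which single TEM libraries stood from the others of their group. A mean of 3 libraries varies less than a single library, so this does not show that TEM and naïve usage are alike. Among 11 other tested genes of the receptor complex and recombination, 2 were called higher in TEM cells, beside 34.2% of all genes. These were Cd4 and Zap70 (log2 0.55 and 0.73). Lower were 4, beside 25.4% of all genes, among them Cd3d, Lat and Dntt (log2 -0.25, -0.53 and -2.62). The value of Dntt averages over YFP- and YFP+ TEM cells, which differed strongly in Dntt, as given above. Trac was not called (log2 -0.21 ± 0.11 SE, limma adjusted p = 0.120).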

How the data were processed

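RNA of the 12 sorted populations was sequenced by the authors from stranded total RNA libraries, aligned to mm10 with DRAGEN and counted per Entrez gene with Rsubread. Read length, annotation and strand setting are not given in the sources used here. The deposited values are a signal: gene counts divided by DESeq2 size factors. All values (100%, within 0.001 of a whole number) came back as whole reads. Genes were named from RefSeq (16749 of 17523). Genes that reached 5 normalized counts in 3 or more libraries were fitted with limma 3.58.1 (R 4.3.3) on log2(normalized count + 1) over all 12 libraries, with a variance trend and Benjamini-Hochberg adjustment over 15587 genes. Fold changes on this scale understate those of low genes. On the recovered reads, edgeR 4.0.16 called 1 member higher and 2 lower in TEM cells, of 436 and 690 genes in all. DESeq2 1.42.0 called 2 and 2, of 569 and 1019 genes in all. Single values were compared by two-sided exact permutation tests (SciPy 1.17.1). For YFP status within a cell type these tests did not use the pairing of libraries by replicate number. Same-numbered YFP+ and YFP- libraries deviated together (r from 0.180 to 0.356 in TEM and from 0.306 to 0.491 in naïve cells), so the numbers were taken to pair them. Between TEM and naïve cells the same number gave r from 0.137 to 0.232 in YFP- but 0.204, -0.0199 and 0.0561 in YFP+ cells, so they were not taken to pair the cell types, although the planned replicate block spans both. The study used 3 mice. The labels do not tie a library to a mouse, and p-values measure the spread between these libraries. Replicates differed beyond sampling noise (36.5 to 80.3 in chi-square divided by its degrees of freedom). The limma fit was tested on simulated data. Members and lists were chosen with earlier results of these data known. Values per library are given for Trbc1, Trbc2, the 5 most used Trbv segments, the Trbv13 family with Trbv1, and members called by YFP status or its interaction. Trbv20, Trbv15, Trbv12-2 and the J segments given by name were chosen after their values were seen. Some genes of the lists are not reported here.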

Additional observations from a re-analysis of the deposited data

Results flagged for a closer look

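The YFP effect on Trbv1 differed between TEM and naïve cells, by 0.89 on the log2 scale (limma interaction term, adjusted p = 0.0364). As a share of Trbv, Trbv1 was higher in the YFP+ library of all 3 TEM pairs and lower in that of all 3 naïve pairs, and the YFP effects differed by 3.68 percentage points. The share of Trbv13-3 moved in the same opposite way, with a difference of 1.65 percentage points. The share of Trbv15 was lower in all 3 TEM and higher in all 3 naïve pairs, with a difference of -1.75 percentage points. The differences of these 3 shares were not tested. Summed Trbv per summed Trbc counts was lower in all 3 TEM and higher in all 3 naïve pairs (difference -0.0120). The summed share of Trbv13-2 and Trbv1 was higher in all 3 TEM and lower in all 3 naïve pairs (difference 6.56 percentage points). Both were picked because every pair ran opposite ways in the cell types. This choice fixes the exact permutation p at 0.1, so that p lends no support. Groups of 3 libraries are too small for a test of single libraries that stand apart.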

How the results depend on the processing

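In TEM cells, 0 members were called higher and 2 lower by YFP status. Higher calls numbered 1 with TMM factors, with a fit of the 6 libraries and with edgeR (beside 432, 452 and 436 higher genes in all), and 2 with quantile normalization (686), with DESeq2 (569), with the replicate block in limma, edgeR or DESeq2 (814, 1093 and 1103) and with the replicate block within each cell type (1302), against 359 in the reported fit. Lower calls numbered 1 with a prior count of 0.1 or without the variance trend (beside 3.5% and 4.2% of all genes). They numbered 0 with quantile normalization (5.17%) or the 6-library fit (6.43%). With a required absolute log2 fold change of 1 they also numbered 0, beside 749 genes in either direction. In naïve cells DESeq2 with the replicate block, and limma with the replicate block within each cell type, called 1 member lower (of 22 and 24 genes). Between TEM and naïve cells (1 higher, 26 lower), scaling to equal Trbv gave 2 higher and 14 lower, beside 43.2% and 11.2% of all genes. The required fold change gave 0 and 1, beside 4253 genes in either direction. In the interaction (1 higher) the count was 0 with a prior count of 0.1, equal Trbv or no trend (0.513%, 0.427% and 0.693% of all genes higher). It was 0 with the required fold change, beside 483 genes in either direction, and 2 with DESeq2 and the replicate block (2.8% of all genes higher). Leaving out libraries gave 0 to 2 higher and 0 to 2 lower calls in TEM cells, beside 0.225 to 2.64% and 0.588 to 5.47% of all genes. Between TEM and naïve cells it gave 0 to 1 higher and 16 to 27 lower, beside 27.5 to 34.7% and 18.4 to 25.1%. In the interaction it gave 0 to 1 higher, beside 0.0 to 1.0%.

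Directions turned in few cases, and the cause was not tested. For TEM against naïve cells, Trbc1 was at log2 0.0085 with quantile normalization and 0.025 with equal Trbv, and Trbc2 at 0.13 with quantile normalization. The naïve YFP difference of the Trbv13-2 share was -0.0265 percentage points, and 0.0534 with shares taken from counts per exon kilobase. Over left-out libraries, naïve YFP differences ranged from -3209 to 347.6 for summed Trbv counts, from -1.14 to 0.245 for Trbc1 percent, from -2.35 to 1.88 for Trbj1 percent, from -0.00649 to 0.00157 for Trbj per Trbc, from -0.00156 to 0.00147 for Trbd per Trbc and from -0.224 to 0.119 for the Trbv13-2 share. Shares of Trbv3 ranged from -3.23 to 0.0706 (YFP, TEM) and from -0.308 to 1.40 (TEM minus naïve), Trbv31 from -1.26 to 1.25 (YFP, TEM) and Trbv5 from -0.582 to 0.350 (TEM minus naïve). With 3 libraries a group, exact tests cannot go below 0.1, and counting error of a share is at most 0.513 percentage points.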
